A study of Mus musculus with 78 samples.

Results

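Clspn, St8sia3 and Spon2 are 3 of the 19057 genes named on the arrays, and they were chosen by name as genes that were lower in mouse striatum during methamphetamine treatment than during saline treatment. The choice was made from the mean difference between methamphetamine and saline over the treatment days, with the sizes on single days and in withdrawal also known, so those values describe the genes and are not evidence for the choice. Striatal RNA of C57BL/6J mice was hybridised to 78 Illumina expression arrays, 1 sample per array. Animals were injected 2 times a day for 12 days with saline, with methamphetamine at doses that went from 2 to 8 mg/kg, or with heroin at doses that went from 10 to 40 mg/kg. Striatum was collected on days 1, 3, 6 and 12 of treatment and, in withdrawal, on days named 13, 15, 18 and 24, which gave 3 arrays per group and 12 per drug and phase. A further group of 6 arrays came from naive mice. No genetic modification is named in the labels, and the age of the mice is not given in the sources used here. Nothing beyond a replicate number says that the arrays are separate animals, so p-values measure the spread between these samples.

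Clspn encodes claspin, an adaptor that travels with the replication fork and lets the kinase ATR phosphorylate the checkpoint kinase CHK1 when DNA replication stalls. It is studied mainly in dividing cells, while the neurons of adult striatum no longer divide. St8sia3 encodes a Golgi enzyme that adds sialic acid to an existing sialic acid on glycoproteins and glycolipids, and its transcript is known to be abundant in mouse striatum. Spon2 encodes mindin, a secreted matrix protein with a thrombospondin repeat that binds integrins and serves as an opsonin in innate immunity.

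In the RefSeq annotation of the mouse build GRCm38.p6, Clspn lies at chr4:126556957-126594533 and Spon2 at chr5:33213518-33218254. The RefSeq promoter table held 1 of the 3 genes, Clspn, whose window is shown because this gene had the largest difference of the 3.

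The window at chr4:126556730-126557029 on the plus strand of GRCm38.p6 holds 300 bases, 250 of them before the start site that the promoter table uses and 50 from it on. That start site lies downstream of the first annotated base of the gene given above. Capitals mark the letters of the motifs found, here as read on the plus strand.
Clspn promoter: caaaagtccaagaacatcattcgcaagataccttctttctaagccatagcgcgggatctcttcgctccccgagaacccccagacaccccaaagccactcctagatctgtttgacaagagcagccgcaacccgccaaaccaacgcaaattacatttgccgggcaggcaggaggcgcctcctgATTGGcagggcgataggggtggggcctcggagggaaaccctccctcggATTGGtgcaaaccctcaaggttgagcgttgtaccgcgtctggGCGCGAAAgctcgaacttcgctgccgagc
Both strands were searched for CCAAT, for CACGTG and for 4 E2F-type forms, TTTCCCGC, TTTGGCGC, TTTGCCGC and TTTCGCGC. E2F factors are known to drive genes of DNA replication. The window holds 2 CCAAT matches on the minus strand, and CCAAT occurs in 37.4% of the 32851 promoter windows of this length in the table. It holds 1 match to TTTCGCGC on the minus strand, a form found in 0.323% of windows, while any of the 4 forms occurs in 2.27%. CACGTG, present in 7.15% of windows, has no match here, and the matches do not overlap each other. A match is a string of letters and was not tested as a binding site.

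The arrays carry 8 probes for the 3 genes. Signals are given as log2 of the quantile-normalized intensity, on which scale the median of an array was 6.95, and levels of different probes are not compared. Of the 4 Clspn probes, ILMN_2858359 was the brightest with a mean of 9.06 over all arrays and stands for the gene below. St8sia3 is represented by ILMN_2740115 (mean 10.88) and Spon2 by ILMN_1229547 (mean 7.10). The Spon2 probe was dim, above the array median on 57 of the 78 arrays, whereas the chosen Clspn and St8sia3 probes were above it on all 78. All 3 passed the filter on low signals, which asked for a probe above the median on every array of at least 1 group. The Spon2 probe passed although it was below the median on 21 arrays, so small values of this gene are the least certain of the 3.

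Raw signal strength varied among arrays, with medians of 95 to 184 intensity units. The 3 methamphetamine day 1 arrays stood apart and went against the tissue label in part. The striatal dopamine receptor gene Drd1 read 11.50, 11.86 and 8.69 on them, against a median of 12.63 on the other 75 arrays. C1ql2, a gene known from the dentate gyrus of the hippocampus, read 12.25, 11.75 and 12.84 there and at most 9.27 elsewhere. The summed signal of 8 hippocampal marker genes was 12011 to 20872 on these arrays and 5029 to 7030 on the others, and that of 13 medium spiny neuron genes was 21507 to 91400 against 71657 to 147123. The lower end of that last range belongs to replicate 2 of saline withdrawal day 15. Whether the methamphetamine day 1 samples held tissue from outside the striatum was not tested. In whole tissue, fewer cells of a type and less RNA per cell cannot be told apart.

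Clspn had the largest methamphetamine difference of the 3 genes. Over the saline treatment arrays its signal ran from 8.99 to 9.43 with a median of 9.26, and over the methamphetamine arrays from 7.37 to 9.33 with a median of 8.83. On methamphetamine day 1 the arrays read 8.38, 8.73 and 7.37, against 9.26, 9.08 and 8.99 with saline. All methamphetamine arrays of that day were below all saline arrays. On day 3 the arrays read 8.93, 9.33 and 9.09 with methamphetamine and 9.36, 9.14 and 9.43 with saline, and the groups overlapped. On day 6 they read 8.84, 8.80 and 8.72 against 9.23, 9.34 and 9.24, and on day 12 they read 8.85, 9.05 and 8.83 against 9.37, 9.37 and 9.25. On both of those days the groups were fully apart, with a difference of -0.48 on day 6 and -0.42 on day 12. The fitted mean difference over the 4 days, with the slide as a term in the model, was -0.52 (SE 0.0882, 12 arrays against 12), a 1.43-fold lower signal. It was the third largest among the 265 genes called lower in this comparison. Those are 2.14% of the 12371 genes tested, and 2.49% were called higher. The choice used this contrast, so nothing is read from that rank.

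**Figure D1:**
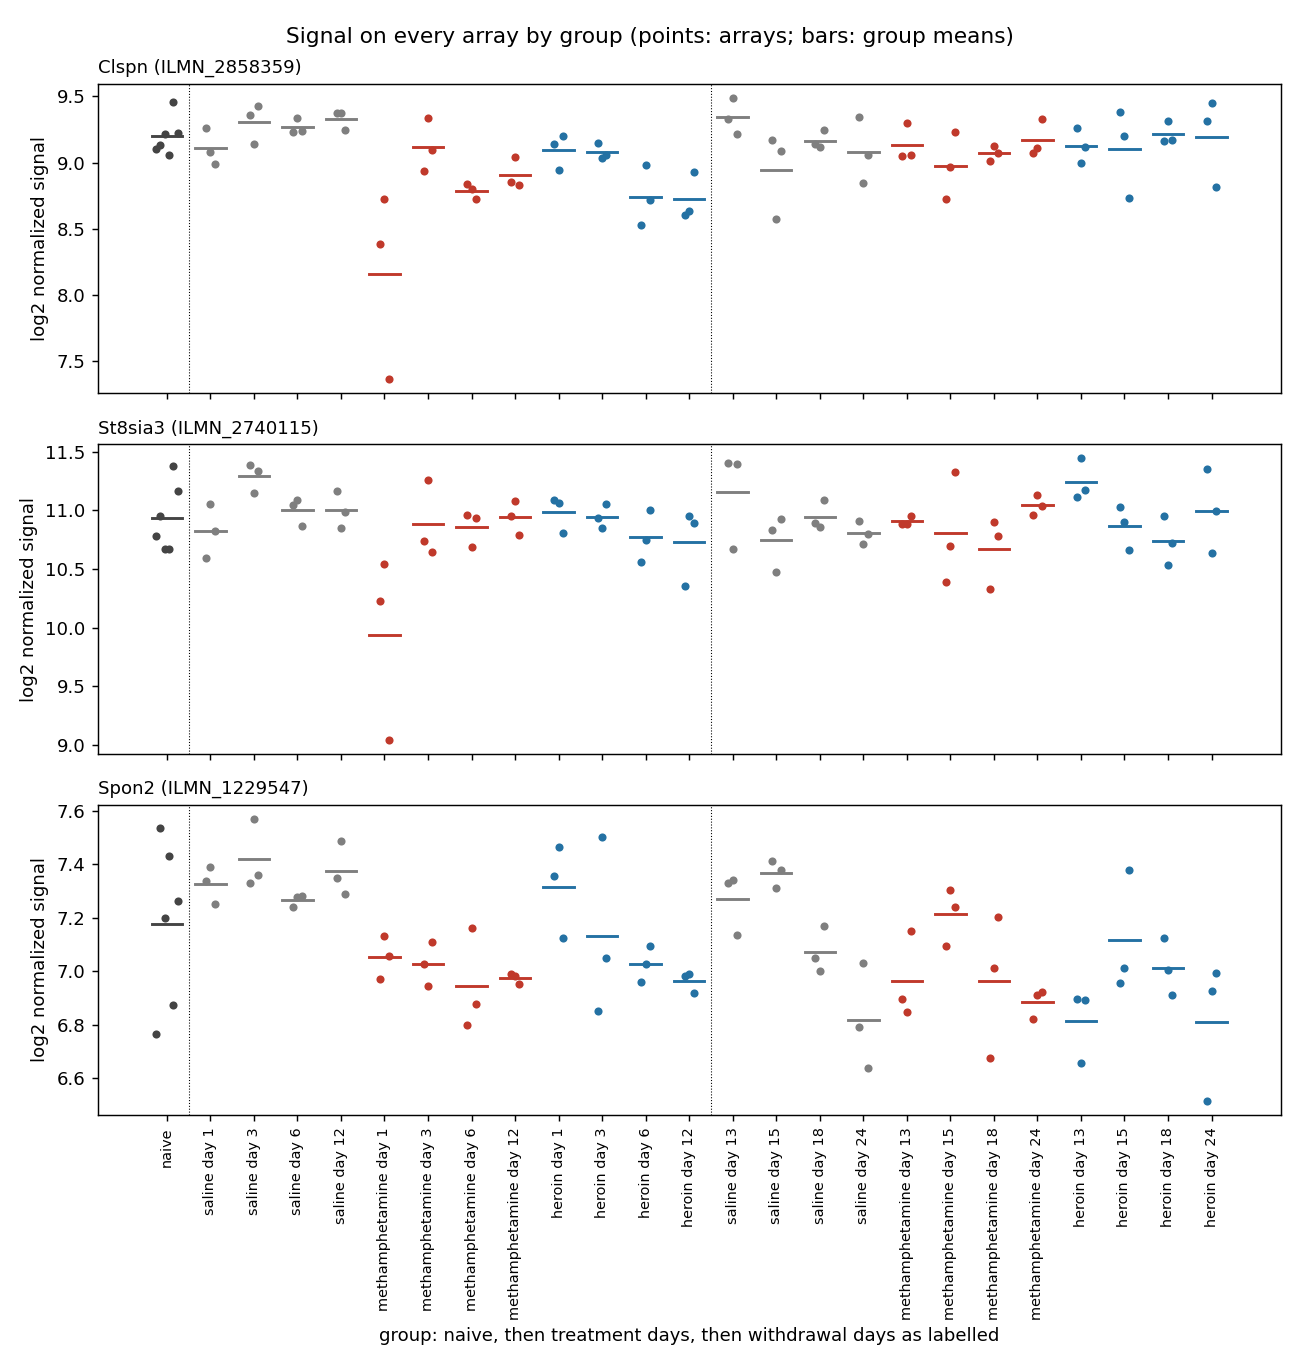
Log2 normalized signal of Clspn, St8sia3 and Spon2 on each of the 78 arrays, with the 25 groups along the horizontal axis (naive, then treatment days, then labelled withdrawal days; grey saline, red methamphetamine, blue heroin). Points are arrays and bars are group means; methamphetamine day 1 replicate 3 reads 7.37 for Clspn and 9.04 for St8sia3, below every other array, while its Spon2 value of 7.06 is within the range of the other groups.

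On its chosen probe, St8sia3 (chromosome 18, 64254359 to 64276146 in the same annotation) was lowest on methamphetamine day 1 and close to saline by day 12. The arrays of day 1 read 10.23, 10.54 and 9.04, against 10.60, 11.06 and 10.82 with saline, and did not overlap. On day 3 they read 10.74, 11.26 and 10.65 against 11.39, 11.15 and 11.33, on day 6 they read 10.96, 10.69 and 10.93 against 11.05, 11.09 and 10.87, and on day 12 they read 10.96, 11.08 and 10.79 against 11.17, 10.85 and 10.99. The groups overlapped on each of these 3 days, with differences of -0.41, -0.14 and -0.06. The second St8sia3 probe, ILMN_1221723, was not close to saline on day 12, with means of 8.57 (methamphetamine) and 8.83 (saline). Its day 12 groups did not overlap (highest 8.68 against lowest 8.76), and its day 3 groups were barely apart (8.5770 against 8.5772). The fitted mean over the 4 days was -0.40 (SE 0.0736), a 1.32-fold lower signal, with 11 of 12 methamphetamine arrays below the saline mean of their day.

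Spon2 was lower on all 4 methamphetamine days by similar amounts. With methamphetamine the arrays read 6.97, 7.13 and 7.06 on day 1, 7.03, 6.94 and 7.11 on day 3, 6.80, 7.16 and 6.88 on day 6 and 6.99, 6.98 and 6.95 on day 12. With saline the lowest treatment array read 7.24, the median was 7.33 and the highest read 7.57. Every methamphetamine treatment array lay below every saline treatment array, since the highest of the former read 7.16. The differences by day were -0.27, -0.39, -0.32 and -0.40, and the fitted mean was -0.35 (SE 0.0637), a 1.27-fold lower signal. With methamphetamine the signals lay close to the array median of 6.95, near the level of dim probes.

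Relative to the median array, Clspn and St8sia3 were low on the day 1 arrays low in medium spiny neuron genes, and Spon2 was not. Against saline day 1, Spon2 differed by -0.27, with all 3 arrays below. Its probe is dim and had less room to fall than the other 2. The mean of the 13 medium spiny neuron genes on methamphetamine day 1 was 1.33 log2 units below saline day 1. Relative to their medians over the 78 arrays, replicate 3 of that day stood at -2.89 for these genes, at -1.75 for Clspn, at -1.86 for St8sia3 and at 0.01 for Spon2. Saline withdrawal day 15 replicate 2, the other array low in these genes (-0.80), stood at -0.54 for Clspn, -0.43 for St8sia3 and 0.26 for Spon2. On methamphetamine days 3, 6 and 12 the medium spiny neuron mean differed from saline by -0.01, 0.06 and 0.09. Clspn differed from saline by -0.19, -0.48 and -0.42 on those days, and its day 3 groups overlapped. Without the day 1 arrays, and with day 1 of every drug left out of the means, the fitted differences were -0.45 (SE 0.0962) for Clspn, -0.32 (SE 0.0746) for St8sia3 and -0.38 (SE 0.0860) for Spon2. These include the slide term. The plain St8sia3 differences on days 3, 6 and 12 were -0.41, -0.14 and -0.06, so the size of the fitted value for this gene depends on that term. Of all 12371 genes, 42 were called in this comparison without day 1 and 573 with it. The part of the tissue content in the values of day 1 or of the later days was not tested.

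**Figure D2:**
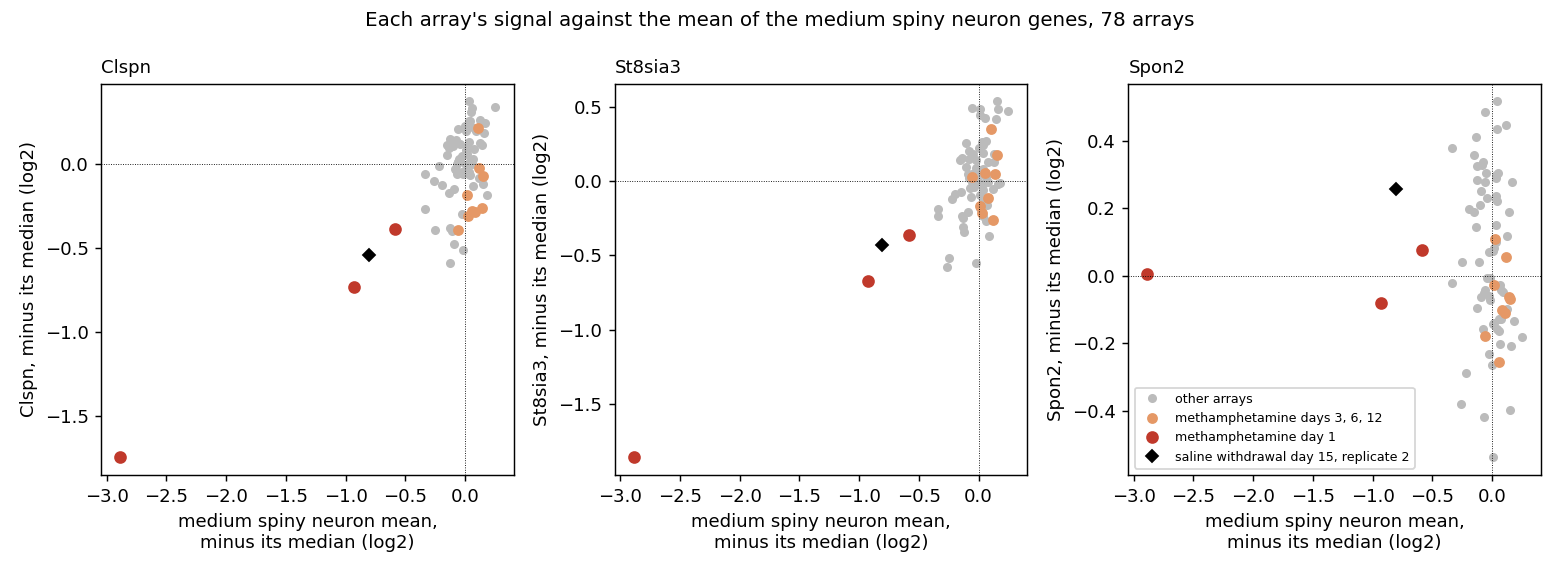
Each of the 78 arrays plotted by its mean of the 13 medium spiny neuron genes (horizontal axis, log2, minus the median array) and by its signal for each gene (vertical axis, log2, minus the median array). The 3 red points of methamphetamine day 1 and the black diamond (saline withdrawal day 15, replicate 2) lie low on both axes for Clspn and St8sia3, whereas for Spon2 they lie between -0.08 and 0.26 on the vertical axis.

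The authors' deposited table of processed log2 values gave smaller differences in the same direction. There the mean treatment differences for methamphetamine were -0.090 for Clspn, -0.054 for St8sia3 and -0.086 for Spon2, on a scale where the values of these genes over all arrays had SDs of 0.0741, 0.0861 and 0.0551, against 0.306, 0.336 and 0.230 in the normalized signals. On day 1 the deposited table showed no lower value for Clspn (-0.0032) or St8sia3 (0.035), and -0.058 for Spon2. Its column for methamphetamine day 1 replicate 3 equals the mean of the columns for replicates 1 and 2. In that table the saline mean of each of the 3 genes was the same on every day of both phases. It was 9.08 for Clspn, 10.90 for St8sia3 and 7.11 for Spon2. For these genes a test among the heroin days of that table therefore brings in the saline arrays, which were used in the choice. Such a test is not the same as the one made on the signals. Clspn was fully apart from saline on days 6 and 12 in that table as well, and Spon2 on all 4 days.

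Heroin was also accompanied by lower values of the 3 genes during treatment, as a comparison with the same saline arrays. Clspn read 9.14, 8.94 and 9.20 on heroin day 1, 9.15, 9.04 and 9.06 on day 3, 8.53, 8.98 and 8.71 on day 6 and 8.60, 8.64 and 8.93 on day 12. Against saline these means differed by -0.02, -0.23, -0.53 and -0.61, and the groups were fully apart on days 6 and 12. Clspn was near saline on the first heroin day and lower than saline on the later days. The heroin means were 9.10, 9.08, 8.74 and 8.72 and the saline means 9.11, 9.31, 9.27 and 9.33. The day 3 difference thus went with a higher saline mean rather than a lower heroin mean. The medium spiny neuron mean differed from saline by at most 0.08 on any heroin treatment day. For St8sia3 the heroin arrays ran from 10.35 to 11.09 with a median of 10.92, and the differences by day were 0.16, -0.34, -0.23 and -0.27. Only day 3 was without overlap for this gene. For Spon2 the heroin arrays ran from 6.85 to 7.50 with a median of 7.04, with differences of -0.01, -0.29, -0.24 and -0.41 and no overlap on days 6 and 12. The fitted mean differences were -0.35 (SE 0.0882) for Clspn, -0.18 (SE 0.0736) for St8sia3 and -0.25 (SE 0.0637) for Spon2. With the methamphetamine day 1 arrays and day 1 of every drug left out they were -0.48 (SE 0.0952), -0.26 (SE 0.0739) and -0.41 (SE 0.0852). Over all genes, 0.655% were called lower and 1.00% higher with heroin. Methamphetamine minus heroin during treatment was -0.16 (SE 0.0882) for Clspn, -0.22 (SE 0.0736) for St8sia3 and -0.10 (SE 0.0637) for Spon2. Each of these means includes the methamphetamine day 1 arrays, and without day 1 the values were 0.03 (SE 0.0950) for Clspn, -0.06 (SE 0.0736) for St8sia3 and 0.02 (SE 0.0849) for Spon2. Without replicate 3 of methamphetamine day 1 alone they were -0.071 for Clspn and -0.130 for St8sia3, and for Spon2 the value was -0.048 without replicate 2 of heroin day 3 and -0.066 without replicate 1 of methamphetamine day 6.

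**Figure D3:**
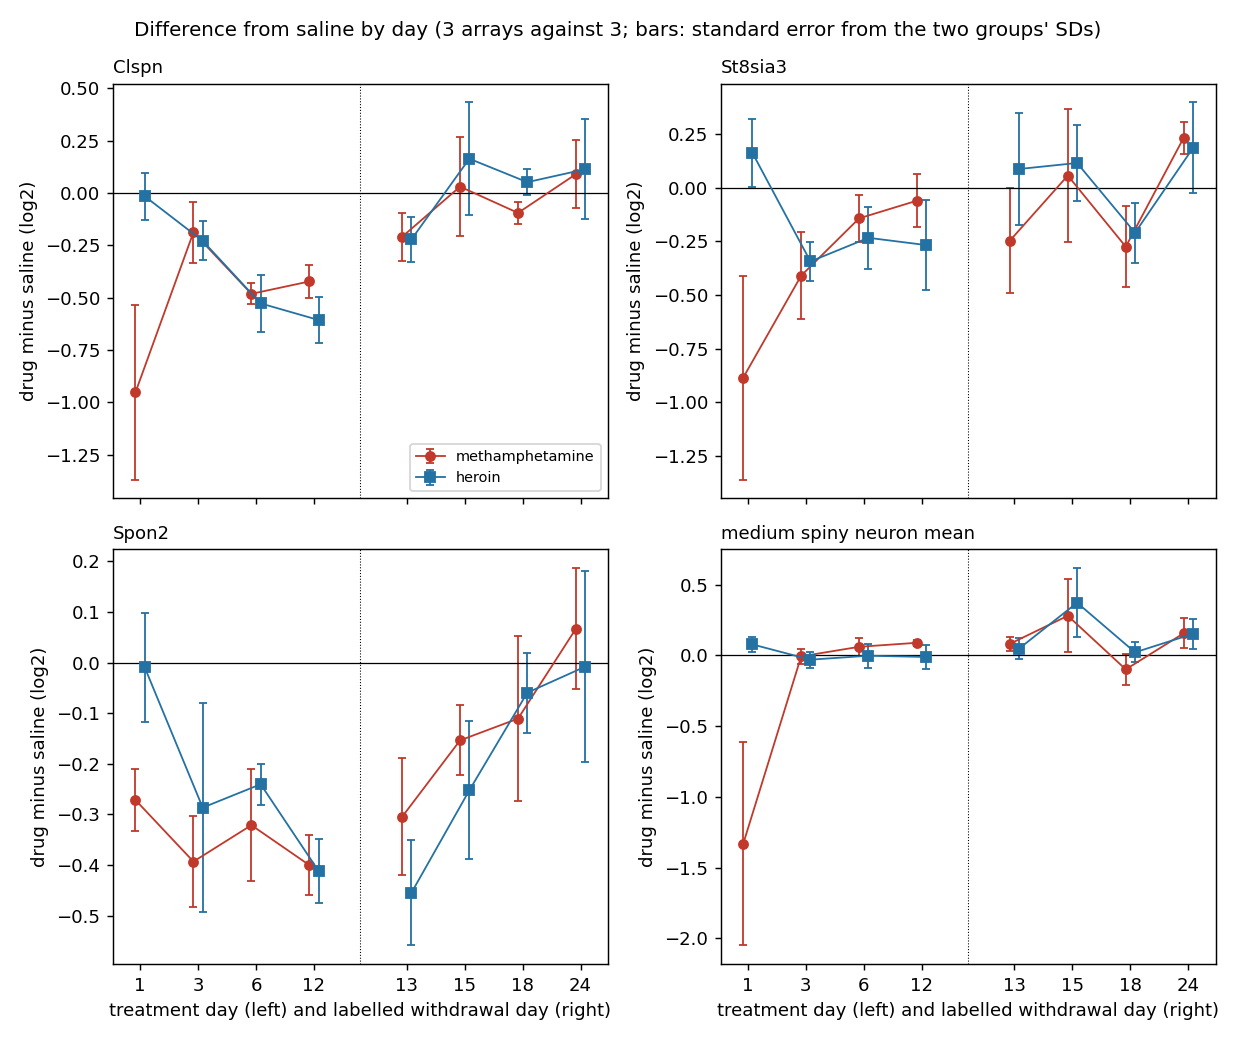
Difference between drug and saline on each day (vertical axis, log2) for the 3 genes and for the mean of the 13 medium spiny neuron genes, by treatment day and labelled withdrawal day, red methamphetamine and blue heroin. Bars are standard errors from 3 arrays against 3; the Clspn differences of both drugs lie between -0.42 and -0.61 on days 6 and 12 and between -0.22 and 0.16 in withdrawal.

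Saline treatment minus naive was above 0 for all 3 genes, at 0.10 (SE 0.112) for Clspn, 0.17 (SE 0.0934) for St8sia3 and 0.13 (SE 0.0808) for Spon2. Leaving out single arrays, these values ran from 0.056 to 0.184, from 0.107 to 0.257 and from 0.065 to 0.204, and naive replicates 4 and 5 gave both ends of each range. Without naive replicate 1 they were 0.065 for Clspn and 0.066 for Spon2. Naive Clspn read 9.06 at the lowest, 9.17 at the median and 9.46 at the highest. Methamphetamine treatment minus naive was -0.41 (SE 0.112), -0.23 (SE 0.0933) and -0.22 (SE 0.0808) in the order Clspn, St8sia3, Spon2, so the differences from naive mice were smaller than those from saline mice. Without day 1 they were -0.27 (SE 0.0969), -0.07 (SE 0.0751) and -0.21 (SE 0.0866). For St8sia3 the value was -0.138 without replicate 3 of methamphetamine day 1 and -0.142 without naive replicate 5. The saline and methamphetamine arrays here are those of the choice, and these values are descriptions.

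The heroin and naive arrays share none with the methamphetamine contrast, and their difference was tested with limma over all 12371 genes. Clspn in heroin treatment differed from naive by -0.25 (95% interval -0.48 to -0.02), with a limma adjusted p of 0.338, and 1.20% of all genes were called. St8sia3 differed by -0.01 (adjusted p = 0.982 by limma) and Spon2 by -0.12 (adjusted p = 0.586 by limma). None of the 3 genes passed the threshold of 0.05. Differences among the 4 heroin treatment days were tested with a moderated F, for which 0.186% of genes were called. Spon2 had F = 4.79 and a limma adjusted p of 0.278, while Clspn and St8sia3 had adjusted p of 0.816 and 0.938. The heroin group means of Spon2 were 7.32, 7.13, 7.03 and 6.96 on days 1, 3, 6 and 12, a decline over the days in these arrays that did not pass the test.

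In withdrawal, the mean over the days of Clspn and of St8sia3 differed little from saline, and that of Spon2 was lower by less than in treatment. Clspn ran from 8.57 to 9.49 (median 9.15) over the saline withdrawal arrays, from 8.72 to 9.33 (median 9.07) after methamphetamine and from 8.73 to 9.45 (median 9.19) after heroin. These ranges overlapped widely. Methamphetamine minus saline was -0.03 (95% interval -0.21 to 0.14, adjusted p = 0.990 by limma) and heroin minus saline was 0.04 (-0.14 to 0.22, adjusted p = 0.908). By labelled day (13, 15, 18 and 24) the Clspn differences were -0.21, 0.03, -0.10 and 0.09 after methamphetamine and -0.22, 0.16, 0.05 and 0.11 after heroin. On day 13 all 3 arrays of each drug were below the saline mean, and on this probe the groups overlapped on each day. On the second bright Clspn probe, ILMN_2623056, both drugs were apart from saline on day 13. Its lowest saline array read 9.09, and its highest arrays read 9.04 after methamphetamine and 9.08 after heroin. Methamphetamine was also barely apart on day 18 there (highest 8.909 against lowest 8.912). The column headers count the withdrawal days as 1, 3, 6 and 12 where the labels have 13, 15, 18 and 24, and the sources do not settle the interval since the last injection, so the labelled days are used as names.

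St8sia3 ran from 10.48 to 11.40 (median 10.87) over the saline withdrawal arrays, from 10.33 to 11.33 (median 10.89) after methamphetamine and from 10.53 to 11.44 (median 10.97) after heroin. Methamphetamine minus saline was -0.04 (95% interval -0.19 to 0.11, adjusted p = 0.982 by limma) and heroin minus saline was 0.07 (-0.08 to 0.22, adjusted p = 0.757). On the last withdrawal day all 3 methamphetamine arrays, at 10.96, 11.13 and 11.04, were above the saline arrays at 10.91, 10.71 and 10.80. On days 13 and 18 the methamphetamine means were instead 0.25 and 0.27 below saline, with overlap. The test of a difference among the 4 withdrawal days gave a limma adjusted p of 1.00 for this gene.

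Spon2 ran from 6.64 to 7.41 (median 7.15) over the saline withdrawal arrays, from 6.67 to 7.31 (median 6.97) after methamphetamine and from 6.52 to 7.38 (median 6.94) after heroin. Methamphetamine minus saline was -0.15 (95% interval -0.27 to -0.02), with a limma adjusted p of 0.869. Heroin minus saline was -0.18 (-0.31 to -0.05), with a limma adjusted p of 0.292. Neither passed the threshold, and 8 of 12 arrays of each drug lay below the saline mean of their day. The methamphetamine differences on days 13, 15, 18 and 24 were -0.30, -0.15, -0.11 and 0.07, and the heroin differences were -0.45, -0.25, -0.06 and -0.01. The saline means themselves were 7.27, 7.37, 7.07 and 6.82 on those days, while the methamphetamine means were 6.97, 7.21, 6.96 and 6.89, so the smaller late differences went with lower saline values. Differences among withdrawal days reached limma adjusted p of 1.00 (methamphetamine) and 0.950 (heroin). The array names in the labels fall into 2 number series, called lots here, lot 1 with 3 slides and 18 arrays and lot 2 with 60 arrays. On lot 1 the methamphetamine withdrawal difference of Spon2 was -0.36 and on lot 2 it was -0.05, with 3 and 9 arrays per group, whose days are mixed within a lot.

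Few genes anywhere on the arrays were called in withdrawal, which sets the background for these values. By limma, 0.0243% of genes were called for methamphetamine against saline, 0.0485% for heroin against saline and 0.00808% for methamphetamine against heroin. For differences among withdrawal days the share was 0% for each drug, where 587 genes for methamphetamine and 881 for heroin had an unadjusted p under 0.05. Methamphetamine minus heroin in withdrawal was -0.07 for Clspn, -0.11 for St8sia3 and 0.03 for Spon2, with limma adjusted p of 0.910, 0.815 and 0.948. Saline withdrawal minus naive, where 0.170% of genes were called, was -0.03 for Clspn, 0.01 for St8sia3 and -0.09 for Spon2 (limma adjusted p of 0.971, 0.993 and 0.842). Whether the difference in treatment exceeds that in withdrawal was not tested, because the choice used the former.

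**Figure D4:**
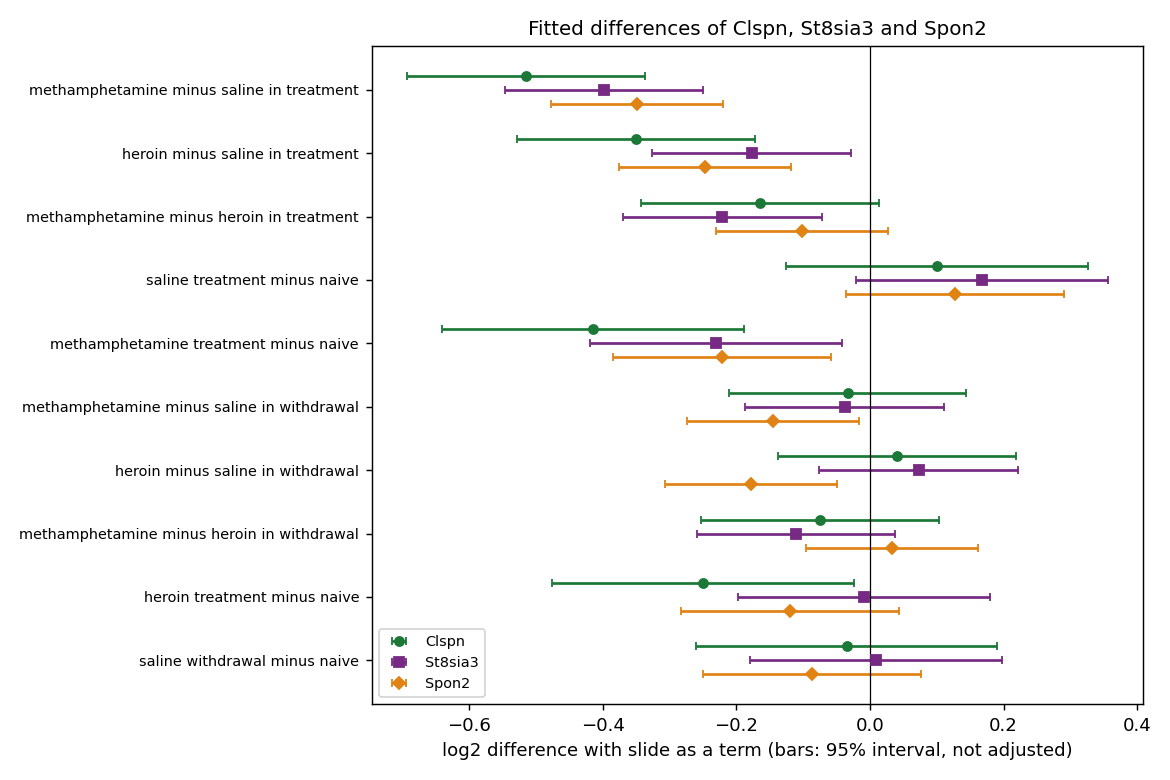
Fitted log2 differences (horizontal axis) of Clspn, St8sia3 and Spon2 for 10 comparisons, with 95% intervals that are not adjusted for the number of genes. The first 5 comparisons share arrays with the choice of the genes; among the other 5, the Spon2 withdrawal differences of -0.15 and -0.18 and the Clspn difference between heroin treatment and naive of -0.25 have intervals below 0, and none passed the adjusted threshold.

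Over the 25 groups the means of Clspn ran from 9.35 (saline withdrawal day 13) to 8.16 (methamphetamine day 1), with saline treatment days 12, 3 and 6 next to the top at 9.33, 9.31 and 9.27. At the bottom, at 8.91 or lower, stood 5 drug treatment groups: methamphetamine days 12, 6 and 1 and heroin days 6 and 12. Neighbours in this order differed by less than the larger of their SDs except methamphetamine days 12 and 6, at 8.91 and 8.79 (SDs 0.120 and 0.0594). The St8sia3 means ran from 11.29 (saline day 3) to 9.94 (methamphetamine day 1, SD 0.792), with the next lowest group at 10.67. Spon2 ran from 7.42 (saline day 3) to 6.81 (heroin withdrawal day 24), and the 4 saline treatment groups were among its 7 highest. No neighbours differed beyond the larger of their SDs for St8sia3 or Spon2.

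The bright second probes of Clspn and St8sia3 were also lower in the mean over the treatment days, but differed from the chosen probes on single days. Spon2 had no bright second probe. The second Clspn probe, ILMN_2623056 (mean 8.88), was lower by 0.45 (SE 0.0849) with methamphetamine and by 0.35 (SE 0.0849) with heroin during treatment. ILMN_2690319, with a mean of 6.91 near the array median, showed -0.12 (SE 0.0494) and -0.07 (SE 0.0494), and ILMN_1241320, below the median on all arrays, showed -0.01 and 0.00. The second St8sia3 probe, ILMN_1221723 (mean 8.53), showed -0.30 (SE 0.0713) and -0.14 (SE 0.0713). Unlike the chosen probe, it was apart from saline on methamphetamine day 12. On withdrawal day 18 its methamphetamine mean was above saline (8.58 against 8.52), where the chosen probe was below, and its withdrawal day 24 groups overlapped. The second Spon2 probe, ILMN_1251457, was above the median on 4 arrays, and its difference was 0.04 with each drug (SE 0.0552). The lower Spon2 signal therefore rests on 1 probe. The annotation gives the second probes of Spon2 and St8sia3 a different transcript record from the first.

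**Figure D5:**
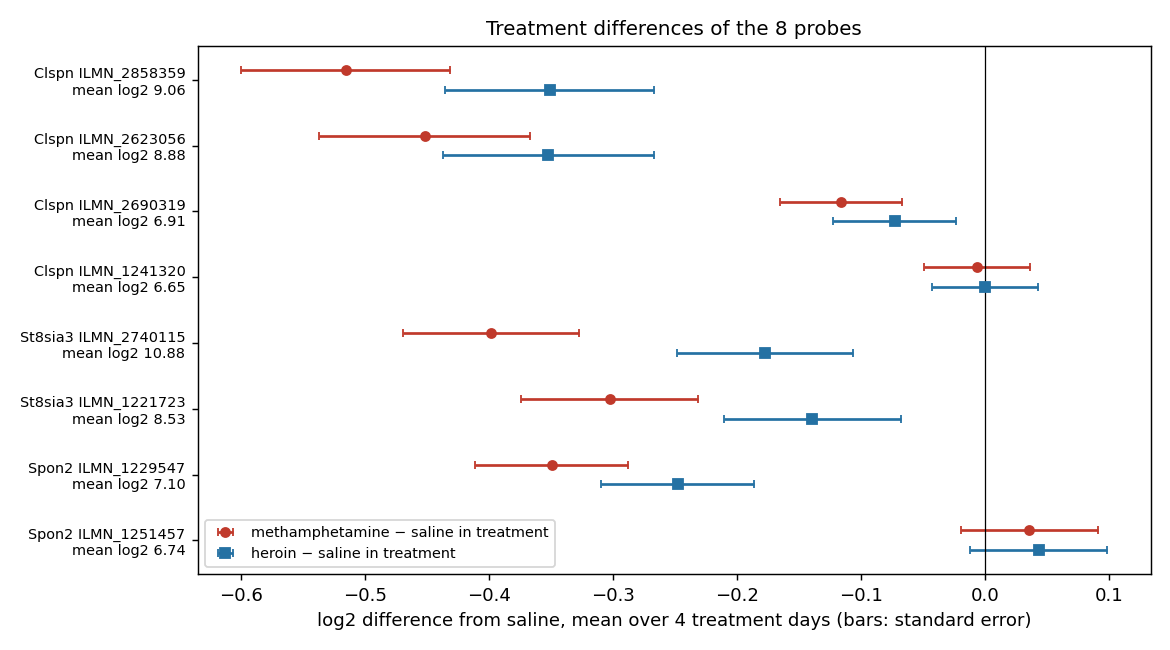
Fitted treatment differences from saline (horizontal axis, log2) of the 8 probes for methamphetamine (red circles) and heroin (blue squares), with standard errors; each probe's mean log2 signal stands beside its name. The 2 bright Clspn probes and both St8sia3 probes lie below 0, the 2 Clspn probes near or below the array median lie between -0.12 and 0.00, and the second Spon2 probe lies at 0.04.

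The group means of Clspn correlated most with those of Itga9, an integrin subunit gene (Pearson r = 0.91), Akap9, a kinase-anchoring scaffold gene (0.91), and Plcl2, a phospholipase C-like gene (0.90). For St8sia3 these were Neto2, an auxiliary subunit of kainate receptors (0.92), Gad1, which makes GABA (0.91), and Slc35d3, a transporter-like gene (0.89). For Spon2 they were Leo1 of the transcription elongation complex PAF1 (0.78), the collagen gene Col1a1 (0.78) and the class II invariant chain gene Cd74 (0.76). The points are 25 group means that share slides and the methamphetamine day 1 arrays. Without that group, Ago4 (0.82), Plcl2 (0.80) and Itga9 (0.80) led for Clspn, Osbpl8, Mkrn1 and Caprin1 (0.83, 0.82 and 0.81) led for St8sia3, and the same 3 genes led for Spon2. Clspn and St8sia3 correlated at 0.83 over 25 groups and at 0.58 over 24, and neither exceeded 0.33 with Spon2.

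Of 24 replication checkpoint partners of Clspn, 20 passed the filter, and 1 rose and 0 fell with methamphetamine treatment by limma at an adjusted p of 0.05. The gene that rose was Cdc25a, the phosphatase that the checkpoint restrains (0.15, SE 0.0459, adjusted p = 0.0424). Their median was 0.03, against 0.00 over all genes. The replication fork partners Timeless and Tipin were at 0.03 and -0.06 (adjusted p of 0.841 and 0.459). Atr and Chek1 are on the array but did not pass the filter. Among 11 measured genes of proliferating cells, Mcm6 of the replicative helicase rose (0.25, SE 0.0538, adjusted p = 0.00269 by limma) and 0 fell. Of the 11, Ccna2 was matched by a synonym to the symbol Ccn1 and may be a different gene. Over all genes 2.49% were called higher and 2.14% lower, so the few calls in these lists are not read as results about them. Without the methamphetamine day 1 arrays, 0 genes of either list passed, in a setting where 42 of all genes did.

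Of 19 other sialyltransferase genes, 16 were measured, and St6galnac5, a ganglioside sialyltransferase, rose (0.18, SE 0.0392, adjusted p = 0.00323) while 0 fell. St8sia2 and St8sia5, of the same enzyme class, were at -0.16 (adjusted p = 0.117) and 0.16 (adjusted p = 0.396). In sialic acid and ganglioside metabolism, 14 of 15 genes were measured, and Neu2, a sialidase that removes sialic acid, fell by 0.46 (SE 0.0739, adjusted p = 5.76e-05) while 0 rose. Of 21 thrombospondin-repeat matrix and guidance genes, 15 were measured, and Thsd4, a matrix protein of microfibrils, rose (0.26, SE 0.0544, adjusted p = 0.00284) while 0 fell. Spon1, which encodes the related matrix protein F-spondin, was at 0.06 (adjusted p = 0.681). Of 5 integrin subunits that bind mindin, 4 were measured and 0 passed, with Itga5 at -0.09 and Itgb1 at -0.08 (adjusted p of 0.433 and 0.435). Over all genes 2.49% were called higher and 2.14% lower with methamphetamine. The medians of these 4 lists lay between -0.05 and 0.02. Without the methamphetamine day 1 arrays, 0 genes of these lists passed the test, in a setting where 42 of all genes did. With heroin treatment 0 genes of them passed, nor did any in withdrawal with either drug.

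Among cell type markers with methamphetamine, 6 of 8 hippocampal genes rose (C1ql2 by 0.81, Lct by 0.61 and Fibcd1 by 0.46), and the medium spiny neuron genes Rgs9 and Pde10a fell by 0.53 and 0.40, 2 of 13 measured. The astrocyte genes Gfap (0.72), Slc1a2 (0.29) and Aldoc (0.16) rose, 3 of 8, and Cldn5 of endothelial tight junctions fell by 0.34, 1 of 6. Without day 1, with 42 calls over all genes, 2 astrocyte genes still passed and 0 of the hippocampal, medium spiny neuron and endothelial genes did. Cortical excitatory neuron, microglia, oligodendrocyte, oligodendrocyte precursor, mural and fibroblast, choroid plexus and blood genes had 0 calls with methamphetamine. Over all genes 2.49% were called higher and 2.14% lower. With heroin, Aqp4 of astrocytes, Gpr17 of oligodendrocyte precursors and Rorb of cortical neurons fell by 0.23, 0.24 and 0.13. These were 1 of 8, 1 of 4 and 1 of 9 measured genes, where 0.655% of all genes were called lower. Without day 1, 1 astrocyte gene and 1 oligodendrocyte precursor gene were called lower with heroin, and 0 cortical genes. Their part in the values of Clspn, St8sia3 and Spon2 was not tested.

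Within lots the treatment differences kept their sign. For methamphetamine, lot 1 against lot 2 gave -0.44 and -0.54 for Clspn, -0.26 and -0.41 for St8sia3 and -0.37 and -0.34 for Spon2. For heroin the pairs were -0.28 and -0.36, -0.11 and -0.19, and -0.12 and -0.28. In withdrawal the sign differed between lots for heroin and Clspn (-0.25 on lot 1 and 0.12 on lot 2).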

How the data were processed

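Biotinylated cRNA from striatal RNA was hybridised to Illumina BeadChips with 6 arrays per slide. The deposited non-normalized table holds linear intensities, 1 for each probe on each array, per the file headers, and the authors' deposited processed table holds log2 values with array medians of 6.936 to 6.948. The software, background correction and normalization behind both are not given in the sources used here. Of 45281 probes, the platform annotation gives 1 gene symbol for 34885, several for 18 and none for 10378.

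Intensities were quantile-normalized and taken to log2. Detection p-values were not in the tables, so a probe was kept (23810 were) if some group had it brighter than the array median on every array. The brightest kept probe stood for each symbol (12371 genes). The fit (limma 3.58.1, R 4.3.3) took in all 78 arrays, with the 25 groups and the 13 slides as terms and 41 residual degrees of freedom. P-values are two-sided, adjusted over all genes by Benjamini-Hochberg, and called at 0.05. Comparisons average the 4 days of a phase, and differences by day are plain means of 3 arrays against 3 without the slide term. Comparisons that share arrays with the choice of the genes are given without a test, and 8 others were tested. Values on single days and in withdrawal were known at the choice, so their tests describe the 3 genes and lend no support. Intervals take the residual degrees of freedom. The number of arrays limits the precision.

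The 3 genes and all lists were chosen with earlier results of these data known. Named besides are the 3 genes with the most similar group means and, of each list, up to 4 genes past the threshold or some of those with the largest change where none passed. Scripts were tested on simulated data. Alternatives were the deposited values, normexp with an offset of 50, median centring, no filter, every probe, slide as a random block, no slide term, lot 2 alone, array weights, robust trended variances, only the groups compared, the replicate number as a block, leaving out methamphetamine day 1, and leaving out each array. Added after seeing the data were the deposited values without 1 averaged column and leaving out methamphetamine day 1 together with saline withdrawal day 15 replicate 2. Arrays of the same replicate number did not deviate together (median correlation -0.014 over 828 pairs, and 0.003 over 1656 pairs of other numbers), so the numbers were not taken to pair samples.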

Additional observations from a re-analysis of the deposited data

How the results depend on the processing

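For the 39 differences and tests of Clspn, St8sia3 and Spon2, 15 other settings gave 570 values, of which 532 kept direction and side of the threshold where tested, or stayed within 1 SD where untested, which allows a change of sign. The cause of the changes was not tested. On the compressed scale of the deposited log2 values the methamphetamine treatment differences moved to -0.090, -0.054 and -0.086 (Clspn, St8sia3, Spon2), those of heroin to -0.109 (Clspn) and -0.062 (Spon2), methamphetamine minus heroin to 0.0052 (St8sia3) and methamphetamine treatment minus naive to -0.072 (Clspn) and -0.024 (St8sia3). Without the averaged column the changed values were -0.090 (Clspn), -0.059 (St8sia3), -0.089 (Spon2), -0.109, -0.062, -0.00010, -0.072 and -0.030 in that order. Spon2 between heroin treatment days passed in both (limma adjusted p of 0.0368 and 0.0389), a different test that includes saline arrays. Clspn for heroin in withdrawal (-0.0038) and for saline withdrawal minus naive (0.013) changed sign in both.

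Untested differences that changed sign within 1 SD were methamphetamine minus heroin in treatment for Clspn (0.019 with the deposited values, with or without the averaged column, and 0.032 without methamphetamine day 1) and Spon2 (0.023 without day 1), which were 0.023 and 0.025 with saline withdrawal day 15 replicate 2 left out as well, and saline treatment minus naive for Spon2 (-0.010 with the deposited values in both forms). Other sign changes of tested differences were past no threshold. For St8sia3 in heroin treatment minus naive they were 0.058 with median centring, 0.055 with only the groups compared, 0.0024 with array weights and 0.010 without methamphetamine day 1 and saline withdrawal day 15 replicate 2, and for St8sia3 in saline withdrawal minus naive -0.014 with median centring, -0.023 with no slide term and -0.0095 on lot 2. Clspn changed to 0.015 for methamphetamine in withdrawal on lot 2, to 0.0027 with array weights and 0.033 without those 4 arrays for saline withdrawal minus naive, and to -0.020 without those 4 arrays for heroin in withdrawal. Spon2 changed to -0.032 for methamphetamine minus heroin in withdrawal with only the groups compared. Spon2 in heroin treatment minus naive passed in that setting (-0.46, limma adjusted p = 0.0301), and its heroin treatment difference moved to -0.41 without methamphetamine day 1, with or without the fourth array, which takes day 1 of every drug out of the means.

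The replicate block changed the sign of St8sia3 in heroin treatment minus naive (0.022) and of Clspn in saline withdrawal minus naive (0.026) and changed no call of the 3 genes. It took the genes called in heroin treatment minus naive from 149 to 46, in saline withdrawal minus naive from 21 to 0 and between heroin treatment days from 23 to 15.

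Leaving out each of the 78 arrays gave 3042 values, with 21 changes of sign and no change of a call. Over these, methamphetamine in withdrawal ran from -0.088 to 0.0015 (Clspn) and -0.086 to 0.016 (St8sia3), heroin in withdrawal from -0.017 to 0.094 (Clspn), methamphetamine minus heroin in withdrawal from -0.0028 to 0.074 (Spon2), heroin treatment minus naive from -0.069 to 0.066 (St8sia3), and saline withdrawal minus naive from -0.079 to 0.049 (Clspn) and -0.051 to 0.099 (St8sia3).

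Counts over all genes depended more on the setting. For methamphetamine in treatment 573 genes became 42 without day 1 and 1353 with array weights, and 308 and 953 without day 1 replicate 3 or replicate 2. For heroin in treatment 205 became 37 on lot 2 and 535 with array weights. In heroin treatment minus naive 149 became up to 342 (without those 4 arrays), and in saline withdrawal minus naive 21 became up to 31 with every probe. Between heroin treatment days 23 became 0 without methamphetamine and heroin day 1, and 811 with the deposited values, where the test may differ. In withdrawal, 3 genes for methamphetamine became 0 to 8, 6 for heroin 0 to 17, and 1 between the drugs 0 or 1; without heroin withdrawal day 13 replicate 1 the count for heroin was 64, and without replicate 2 it was 1. Dim probes limit Spon2 most.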
